A study of Mus musculus with 2 samples.

Results

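Transcripts of 10 decapping and processing body (P-body) factors were examined for binding by UPF1, an RNA helicase. They were Ddx6, Lsm14a, Lsm14b, Dcp1a, Dcp2, Edc3, Edc4, Xrn1, Pnrc2 and Eif4enif1. Their rule uses names and loci, not folds, but the genes were picked with earlier results of these data known. A UPF1 cluster, a stretch of RNA with piled-up immunoprecipitate reads, was counted for a gene when it overlapped the RefSeq GRCm38 locus by at least 1 base on the strand of the gene. This gave 86 of the 123349 deposited clusters. All 10 genes held at least 1 cluster, out of 9483 protein-coding genes that did.

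An mRNA that leaves translation is usually shortened at its poly(A) tail, loses its cap to the decapping enzyme, and is then degraded from the 5′ end. Dcp2 is the catalytic subunit of that enzyme, with Dcp1a, Edc3 and Edc4 as activators and scaffolds, and Xrn1 is the exonuclease that follows. Ddx6, Lsm14a, Lsm14b and Eif4enif1 hold translationally repressed mRNAs, many of them in P-bodies, the cytoplasmic granules in which these proteins gather. Pnrc2 is known as an adaptor between UPF1 and Dcp1a in nonsense-mediated decay, the pathway that removes transcripts whose translation ends prematurely.

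The data come from enhanced crosslinking and immunoprecipitation (eCLIP), which maps RNA fragments that copurify with a protein and compares them with an input library. The cells were cultured neural progenitor cells from mouse cortex with the genotype Upf2fl/fl, a loxP-flanked allele of the UPF1 partner Upf2. Both libraries carry this genotype and the word MOCK, which the labels do not explain, and no age or strain is given. There was 1 immunoprecipitate with a UPF1 antibody and 1 input, so the spread between cultures was not measured and no test between samples was possible. The libraries are bulk, so a transcript present in fewer cells and one present at fewer copies per cell cannot be told apart.

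For every cluster the authors deposited the log2 ratio of immunoprecipitate to input, here called its fold, together with the −log10 of its p-value. Enriched means that the fold (log2) and the −log10 p both reached 3. The reads behind a cluster were reconstructed from its fold and p, and intervals on a fold are exact Clopper-Pearson 95% intervals on those reads, covering counting error only. An input of 1 read may also stand for no input read. Of the 9 neural progenitor markers looked up, 8 had a cluster and 6 an enriched one. Pax6, a cortical progenitor transcription factor, had 7 clusters and none enriched, and Vim had 9 and none enriched. Markers of other neural cells also had enriched clusters: 4 of 5 astrocyte and 5 of 7 oligodendrocyte lineage markers, and 2 of 6 neuron markers. In these 3 lists 4, 5 and 4 markers had a cluster on their strand. Among all protein-coding genes with a cluster 34.8% had an enriched one. Enrichment is a ratio to input and does not measure the amount of a transcript. The enriched clusters of the progenitor marker Sox2 and the astrocyte marker Aldh1l1 all touch another locus. Hes1 (progenitors) and Aqp4 (astrocytes) had 1 and 18 clusters whose strand could not be matched. None of 4 microglia markers had a cluster. Of 6 vessel and fibroblast markers 5 had none, and the sixth, Pdgfrb, had 1 whose strand could not be matched. The part of these cell types in the values below was not tested.

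UPF1 was enriched on 4 of the 10 transcripts: Ddx6, Lsm14a, Lsm14b and Pnrc2. They held all 31 enriched clusters, 14 in Ddx6, 7 in Pnrc2 and 5 in each of Lsm14a and Lsm14b. The transcripts of the decapping enzyme and its activators (Dcp2, Dcp1a, Edc3, Edc4), of Xrn1 and of Eif4enif1 had 44 clusters and none enriched. A share of 4 in 10 genes is close to the background: 34.8% of all protein-coding genes with a cluster had an enriched one, and 42.1% of those with 4 to 15 clusters, the range of the 10 genes. Of the 86 clusters 36.0% were enriched, against 11.6% of all clusters in the file, but the 31 come from only 4 genes, whose clusters share transcripts and in part reads. Taking the highest fold of each gene, the median was 3.02 for the 10 genes and 2.56 for all protein-coding genes.

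**Figure D1:**
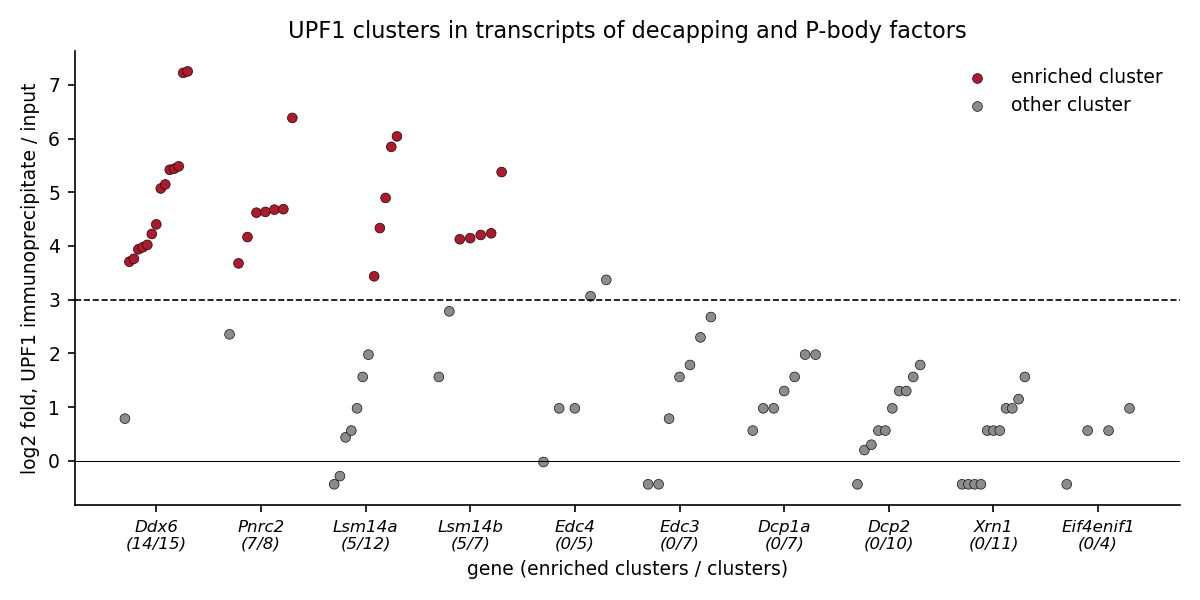
Log2 fold of the UPF1 immunoprecipitate over input (vertical axis) for each of the 86 clusters, by gene and ordered by the highest fold; each point is 1 cluster, red where enriched, with a dashed line at the fold threshold of 3 and, under each gene, enriched clusters over all clusters. Ddx6, Pnrc2, Lsm14a and Lsm14b hold all red points, and 2 clusters of Edc4 lie above the line at 3.37 and 3.06 without passing the p threshold.

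Ddx6, the DEAD-box helicase of P-bodies, represses translation and activates decapping. Its locus on chromosome 9 runs from 44602983 to 44640731 on the plus strand, and 14 of its 15 clusters were enriched. The highest fold was 7.25 (interval 4.76 to 12.56), in a cluster of 43 nt from 44638160 to 44638202 with 310 reads against 1. The cluster that adjoins it, 28 nt wide, had 304 reads against 1 and a fold of 7.22. By its highest fold Ddx6 ranked 40 among the 9483 protein-coding genes.

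The deepest cluster of Ddx6 was another one, 142 nt wide from 44638694 to 44638835, whose −log10 p was at the cap of 400. Its fold was 5.07, for which 1709 reads against 25 are the smallest whole numbers that match, or a multiple of both. It lay 1967 nt from the annotated 3′ end of the locus. The enriched clusters of Ddx6 began 3666 nt and ended 949 nt before that end, and they covered 762 nt in a stretch of 2772 nt. Within that stretch the folds did not run in one direction. They were 4.22, 5.42 and 5.48 in the 3 clusters farthest from the end, 7.25 and 7.22 in the next 2, and 5.15, 3.98, 5.44 and 5.07 in the 4 after those. The 5 nearest the end had 4.02, 4.40, 3.71, 3.94 and 3.76. These last 5 had 3 to 18 input reads each, more than the 1 input read of the highest pair. The remaining cluster, 26647 nt from the end, had a fold of 0.78 from 14 reads against 4.

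Lsm14a and Lsm14b are paralogous RNA-binding proteins that associate with Ddx6. Lsm14a lies on the minus strand of chromosome 7, from 34344144 to 34390026, and 5 of its 12 clusters were enriched. They formed a run of 3 adjoining clusters over 403 nt (34345146 to 34345548) with folds of 5.85, 6.04 and 4.33, and a run of 2 over 188 nt (34344854 to 34345041) with folds of 4.89 and 3.44. The highest, 6.04 (interval 3.54 to 11.36), had 134 reads against 1 and lay 1239 nt from the 3′ end. Its −log10 p was 21.4. The other 7 clusters of Lsm14a were scattered over the locus between 7000 and 45349 nt from the end. Their folds ran from -0.44 to 1.98, with 3 to 11 immunoprecipitate reads, where folds below 0 are counted at their smallest matching numbers.

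Lsm14b, on the plus strand of chromosome 2 from 180024900 to 180035466, had 5 of 7 clusters enriched. A run of 3 adjoining clusters over 301 nt (180034644 to 180034944) had folds of 5.38, 4.13 and 4.24 from 169, 213 and 115 reads against 2, 6 and 3. Toward the end followed 2 separate clusters with folds of 4.15 and 4.20, the last of them 293 nt from the 3′ end. The highest fold, 5.38 (interval 3.50 to 8.43), lay 780 nt from the end. The other 2 clusters of Lsm14b lay at its 5′ end, 203 and 270 nt from the annotated start. Their folds were 1.56 (12 reads against 2) and 2.78 (14 against 1, −log10 p 1.54), neither enriched. The intervals of the highest folds of Lsm14a and Lsm14b overlap, so the paralogs were not resolved in height. Both had their enriched clusters within the last 1374 nt of the locus, and none beyond.

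Pnrc2, the adaptor between UPF1 and the decapping complex, has a short locus of 2930 nt on the minus strand of chromosome 4, from 135870917 to 135873846. Of its 8 clusters 7 were enriched. They covered 696 nt, in a stretch of 1072 nt that began 1202 nt from the 3′ end. The highest fold was 6.39 (interval 3.89 to 11.70) from 170 reads against 1, in the cluster nearest the end, at 217 nt. Going upstream from there, the folds of the other enriched clusters were 4.63, 4.68, 4.69, 4.17, 3.68 and 4.62. The cluster farthest from the end, at 1386 nt, had a fold of 2.35 from 52 reads against 5. Its −log10 p of 3.74 passed the p threshold, so it was the fold that kept it out, and it was the only member cluster that a fold threshold of 2 added.

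**Figure D2:**
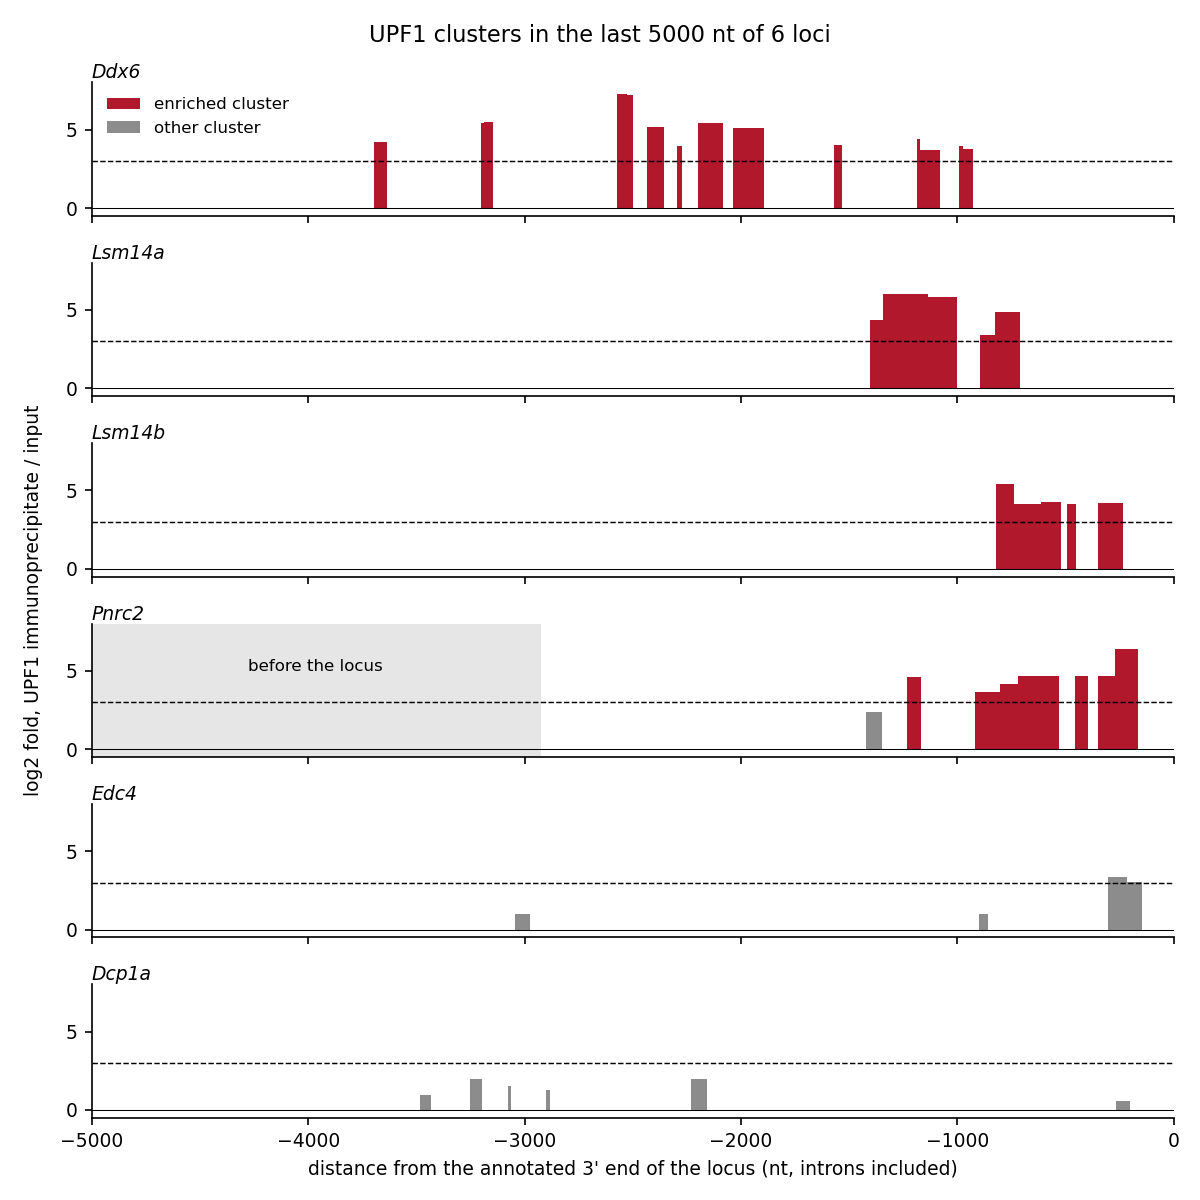
Log2 fold (vertical axis) of each cluster in the last 5000 nt of 6 loci against the genomic distance of its midpoint from the annotated 3′ end (horizontal axis, nt); bars are drawn to the width of the cluster, red where enriched, with a dashed line at the fold threshold of 3. The enriched clusters of Lsm14a, Lsm14b and Pnrc2 lie within 1374, 780 and 1202 nt of the end, those of Ddx6 between 949 and 3666 nt.

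Among the 4 bound transcripts, position and enrichment went together in Ddx6, Lsm14a and Lsm14b. The distance to the 3′ end was between 217 and 3666 nt for the 31 enriched clusters, with a median of 1068 nt, so all lay in the last 5000 nt. Of the other 11 clusters of the 4 genes, 10 lay farther than 5000 nt away and 1, in Pnrc2, lay within. The Pnrc2 locus has only 2930 nt, so all its clusters fall within 5000 nt, enriched or not. Over all protein-coding genes 91.6% of 14090 enriched clusters were this close, with a median distance of 1356 nt, so this placement is also that of the file as a whole. Distances are genomic and include introns. Whether a cluster lay in a coding exon, an intron or an untranslated region was not analysed here, and neither was the sequence under the clusters. No enriched cluster touched a second annotated locus. No cluster lay on the opposite strand of the 8 loci whose strand is annotated; for Ddx6 and Dcp2 the strand was itself taken from the clusters. None lay on the strand of any of the 10 in the 5000 nt downstream.

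The decapping enzyme itself showed no enriched cluster. Dcp2, on the plus strand of chromosome 18 from 44380500 to 44424969, had 10 clusters with folds from -0.44 to 1.78. Its highest came from 7 reads against 1 (interval -1.18 to 7.28), 6512 nt from the 3′ end. Dcp1a, its activating partner (chromosome 14, 30479486 to 30527056, plus strand), had 7 clusters with folds from 0.56 to 1.98. The fold of 1.98 occurred in 2 clusters, 3224 and 2195 nt from the end, each from 8 reads against 1. Of the 7 clusters of Dcp1a 6 lay within 5000 nt of the end, where the bound transcripts had their enriched clusters, and 5 of the 10 clusters of Dcp2 did.

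The enhancers of decapping came closest to the thresholds. Edc4, a large scaffold protein of the decapping complex (chromosome 8, 105880873 to 105893225, plus strand), had 5 clusters. The 2 nearest its 3′ end adjoin each other over 160 nt, at 262 and 182 nt from the end. Their folds were 3.37 (21 reads against 1, interval 0.73 to 8.74) and 3.06 (17 against 1, interval 0.39 to 8.45). Both passed the fold threshold and missed the p threshold, with −log10 p of 2.59 and 1.96. With their reads summed, 38 against 2, the stretch had a fold of 3.22 and a −log10 p of 4.50 and passed, but a read that reaches across the border may have been counted in both. Edc3 (chromosome 9, 57708540 to 57750163, plus strand), which binds Ddx6 and Dcp2, had 7 clusters with folds from -0.44 to 2.68. The 2 highest, 2.68 and 2.30, lay 1353 and 599 nt from the end, from 13 and 10 reads against 1.

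Xrn1, the cytoplasmic 5′ to 3′ exonuclease, has the longest of the 10 loci (chromosome 9, 95954750 to 96057806, plus strand; 103057 nt). It had 11 clusters, none in the last 5000 nt, and the nearest lay 7464 nt from the end. Their folds ran from -0.44 to 1.56, and 4 of them were below 0. The highest, 6 reads against 1, lay 66286 nt from the end. Eif4enif1, which binds the cap-binding protein eIF4E and moves it into the nucleus and to P-bodies (chromosome 11, 3202343 to 3244588, plus strand), had the fewest clusters, 4, with folds from -0.44 to 0.98. Of these 3 lay within 5000 nt of the end, at 3651, 1377 and 151 nt, with 4, 3 and 3 reads against 1.

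The 6 transcripts without an enriched cluster also had few immunoprecipitate reads, which are the numerator of the fold and so are no separate evidence. Their 44 clusters had a median of 4 reads and at most 21. Here clusters with a fold at or below 0 stand at their smallest matching numbers and may hold more reads. The 30 enriched clusters with reconstructed reads had a median of 119 and at least 36. Among clusters with an input of 1 read, the thresholds amount to 24 immunoprecipitate reads, so enriched ones exceed the others by definition. Holding the input at 1 read is therefore no separate test. The 11 enriched clusters with this input had 36 to 310 immunoprecipitate reads. The 31 in Dcp1a, Dcp2, Edc3, Edc4, Xrn1 and Eif4enif1 had 3 to 21. The 5 unenriched ones of the 4 bound transcripts were similarly low, with 3 to 14. The interval of a single cluster with so few reads is wide: for the highest fold of Edc3 it ran from -0.06 to 8.09, so a fold of 3 lies inside it.

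**Figure D3:**
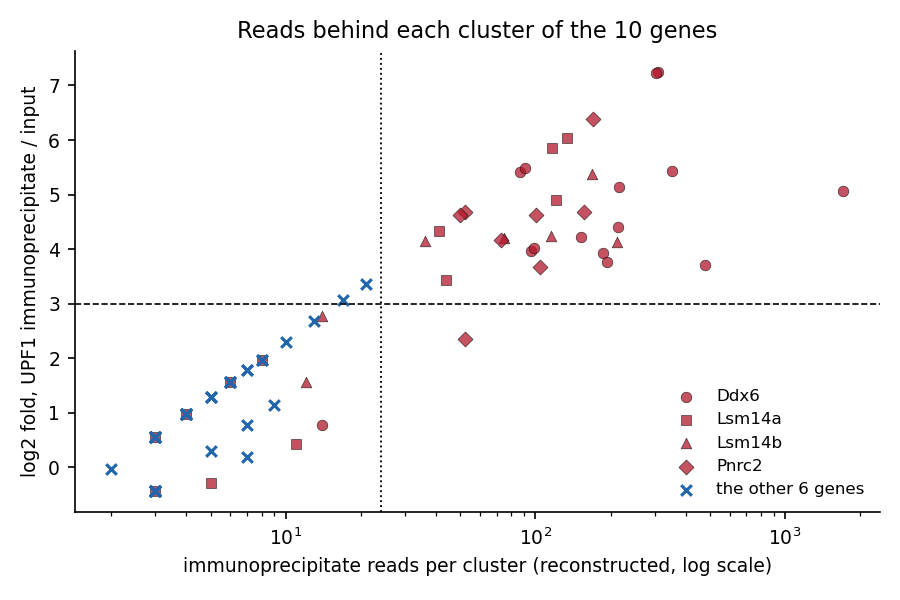
Log2 fold (vertical axis) against immunoprecipitate reads (horizontal axis, log scale) for each of the 86 clusters, red symbols for the 4 genes with enriched clusters and blue crosses for the other 6; the dashed line is the fold threshold of 3 and the dotted line 24 reads, which is what the 2 thresholds amount to with 1 input read. The enriched clusters have 36 reads or more, and the blue crosses 21 or fewer.

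Reads were also added up over the last 5000 nt of each locus, with 1 cluster, the deepest, taken from each adjoining run. The 4 bound transcripts gave log2 folds of 5.39 for Lsm14a (255 reads against 3, interval 3.82 to 7.67), 4.72 for Ddx6 (3697 against 69, 4.38 to 5.08), 4.43 for Pnrc2 (481 against 11, 3.57 to 5.44) and 4.15 for Lsm14b (324 against 9, 3.20 to 5.29). Without the deepest cluster of Ddx6 its value was 4.47 (interval 4.04 to 4.94). Summed over the same distance, Edc4 had 1.93 (31 reads against 4, interval 0.43 to 3.89), Edc3 1.49 (40 against 7, 0.32 to 2.89), Dcp1a 1.48 (34 against 6, 0.21 to 3.02), Eif4enif1 0.71 (10 against 3, -1.24 to 3.21) and Dcp2 0.50 (23 against 8, -0.71 to 1.87). The sums of Edc4 and Edc3 each hold 1 cluster with a fold below 0, taken at its smallest matching numbers. These 2 sums are therefore not exact, and neither is that of Ddx6, whose capped cluster also stands at its smallest matching numbers. Xrn1 had no cluster in the last 5000 nt. Input reads in these sums were 3 to 69 for the 4 bound transcripts and 3 to 8 for the others with a cluster in the last 5000 nt. Immunoprecipitate reads were 255 to 3697 and 10 to 40. The sums are selected on the immunoprecipitate, since clusters were called on it and input reads outside clusters are not counted. They therefore describe only the called clusters, and differences between genes were not tested. Clusters a few nt apart can still share reads, so the intervals are too narrow. Over 8208 protein-coding genes with a cluster in the last 5000 nt the median of this summed fold was 1.98, and over the 9 of these genes it was 1.93.

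**Figure D4:**
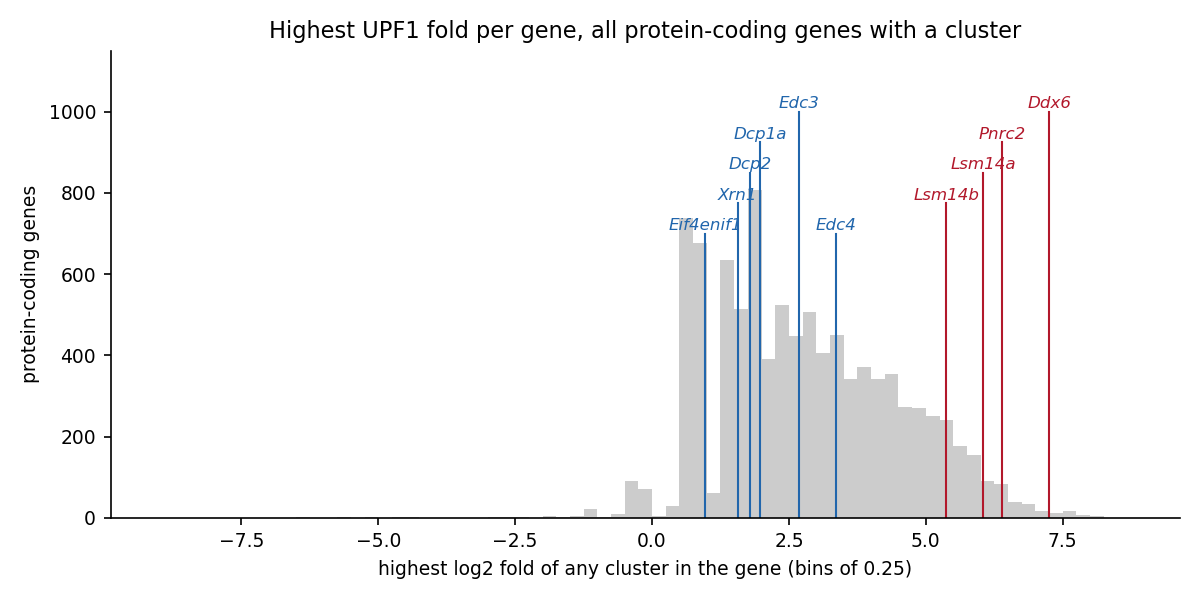
Number of protein-coding genes (vertical axis) by the highest log2 fold of any of their clusters (horizontal axis, bins of 0.25), with the 10 genes as lines, red for those with an enriched cluster and blue for the rest; line heights carry no value. The 4 red lines, from 5.38 for Lsm14b to 7.25 for Ddx6, stand in the upper tail. The 6 blue lines stand between 0.98 and 3.37. Those of Edc4 and Edc3 are above the median of all genes, 2.56, and those of Dcp1a, Dcp2, Xrn1 and Eif4enif1 below it.

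Against all 9483 genes, the highest folds of Ddx6, Pnrc2, Lsm14a and Lsm14b were above those of 99.6%, 98.2%, 96.9% and 92.0% of genes. Edc4 and Edc3 were above 63.8% and 50.9%. Dcp1a, Dcp2, Xrn1 and Eif4enif1 were above 35.1%, 30.2%, 24.8% and 10.8%. These ranks rest on 1 cluster per gene, which for Ddx6, Pnrc2 and Lsm14a had 1 input read and a wide interval. A highest fold can also rise with the number of clusters, from 4 in Eif4enif1 to 15 in Ddx6, and the ranks were not matched for it.

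Enriched clusters were also found in 8 other genes of decapping and P-bodies. Of 25 looked up, 21 had a cluster, and the 8 are 38.1% of these (Wilson 95% interval 20.8 to 59.1), near the 34.8% of all protein-coding genes. The count was 4 with a fold of at least 4, 3 with a −log10 p of at least 5, and 4 with clusters of 1 input read left uncalled, where 25.0%, 26.7% and 22.2% of all protein-coding genes were called. The median of the highest folds of the 21 was 2.44. In Samd4b, a Smaug-type RNA-binding repressor, 10 of 24 clusters were enriched, with a highest fold of 5.57 (interval 3.70 to 8.62). Mcrip1, a small protein that binds Ddx6, had all 6 clusters enriched and reached 5.24 (interval 2.72 to 10.56). Limd1, a LIM-domain protein of P-bodies, reached 4.50 with 2 of 9 clusters enriched, and the cap-binding protein gene Eif4e reached 4.11 with 1 of 9. The other 4 each had a highest fold under 4: Eif4e2, a repressive cap-binding relative, 3.73; Patl1, which links Ddx6 to the LSM ring, 3.68; Zfp36l2, which binds AU-rich elements, 3.56; and Gigyf2, a partner of Eif4e2, 3.26. Of the genes with none enriched, Xrn2, the nuclear relative of Xrn1, had 20 clusters and reached 1.56. Dcp1b, the paralog of Dcp1a, had 16 and also reached 1.56, and Samd4 had 15 and reached 2.56. Gigyf1, with 8 clusters, reached 1.62. Of the LSM ring that binds shortened tails, Lsm3, Lsm4, Lsm6 and Lsm7 had 2 to 5 clusters each and none enriched.

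Neighbouring steps of decay were set beside these genes. Of the 14 deadenylase genes, UPF1 was enriched on 5 (35.7%, interval 16.3 to 61.2), with a median highest fold of 2.50 and 12 of 281 clusters enriched. Of these 12, 4 lie in Cnot9 where they touch another locus, and without such clusters 4 deadenylase genes were called. Under each of the same 3 stricter settings 2 deadenylase genes were called, and 4 core NMD genes. Among the core NMD genes UPF1 was enriched on 5 of 9 with any cluster (55.6%, interval 26.7 to 81.1). Their median highest fold was 3.78, and 22 of 141 clusters were enriched. Of these 22, 6 lie in Smg6 where it overlaps another locus, and without such clusters 4 core NMD genes were called. Over the whole file 34.8% of protein-coding genes with a cluster had an enriched one. Of all clusters 11.6% were enriched, against 4.3% in the deadenylase genes and 15.6% in the core NMD genes. The intervals of the 3 lists overlap that of the 10 genes (40.0%, 16.8 to 68.7), and the differences were not tested.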

How the data were processed

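One eCLIP immunoprecipitate with a UPF1 antibody and 1 input were analysed, as a list of stranded clusters on mm10. The file has no header. Its log2 fold and −log10 p columns, as the authors deposited them, were identified by their values and the usual column order of this format. UMI-tools, cutadapt and STAR are named in the submitters' processing notes; the cluster caller is not given in the sources used here. A fold at or below 0, found in 32999 clusters, always carries a −log10 p of 0, so depletion has no test.

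Clusters were matched to RefSeq GRCm38.p6 loci with Python 3.11.15 and pandas 2.3.3. Strands came from the RefSeq promoter table or, for Ddx6 and Dcp2, from their clusters, all on the plus strand (rule: at least 80% of 2 or more clusters in no other locus). Read counts were reconstructed with the commonest fold as 3 reads against 1, which puts the immunoprecipitate at 2.03 times the input. A pair of whole numbers had to match the ratio and, within 0.05 or 1%, the −log10 p (exact binomial test under 5 reads, otherwise chi-square). This succeeded for 99.6% of the 90350 clusters with a fold above 0, and for 74 of the 86 clusters of the 10 genes. The other 12, 11 with a fold at or below 0 and 1 at the cap, are given as the smallest matching numbers. The procedure was also run on simulated pairs, whose p-values came from the same formula and a known scale. That run could check only the code, not the scale or the p-value test assumed for the deposited clusters. Touching clusters can share reads: in Ddx6, clusters of 10 and 42 nt had 87 and 91.

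The genes and lists were chosen with earlier results of these data known. The text names all 10 genes, and of the other decapping and P-body genes the 8 with an enriched cluster and the 4 with the most clusters and none enriched; the LSM genes were added after their values were seen. Alternatives were other thresholds, overlap rules and merging of touching clusters.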

Additional observations from a re-analysis of the deposited data

How the results depend on the processing

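Ddx6, Lsm14a, Lsm14b and Pnrc2 had an enriched cluster under all 8 alternatives, and no other of the 10 genes did except Edc4 when the reads of touching clusters were summed. Several alternatives could hardly remove a call. A fold threshold of 2 only loosens the rule, and no enriched cluster touched a second locus. The midpoint rule left all 31 in place, and merging kept the cluster of the highest fold in each run. The stricter settings were a fold of at least 4, a −log10 p of at least 5 and inputs of 1 left uncalled. The number of enriched clusters, 31, was 19 with touching clusters merged, 20 with their reads summed and 20 with clusters of 1 input read left uncalled. That last setting moved their share from 36.0% to 23.3%. The other decapping and P-body genes with an enriched cluster numbered 8, or 4 with a fold threshold of 4, 3 with a −log10 p of at least 5, and 4 without clusters of 1 input read. For the deadenylase genes 5 became 2 under each of these 3 settings. The other 46 of 56 comparisons of summary values stayed within 1.5 times of the reported count or within its interval. Summing reads and leaving out inputs of 1 were chosen after seeing the data. No paired analysis was possible because each group has 1 library. Read numbers limit the precision of single clusters, as their intervals show.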
